A study of Mus musculus with 34 samples.

Results

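Metabotropic glutamate receptors were described as 6 genes: Grm5 of receptor group I, Grm2 and Grm3 of group II, and Grm4, Grm7 and Grm8 of group III. The members were taken by gene symbol, from a family proposed with earlier results of these data known, and all 6 were found among the 18548 genes of the deposited table. Male mice of the C57BL/6J strain, 56 days old, were heterozygous for a Myt1l mutation (HT) or wild type (WT). Myt1l is the gene of a neuronal transcription factor with zinc fingers; the labels do not describe the mutant allele, and no group received a treatment. RNA sequencing covered prefrontal cortex (PFC; 5 HT and 6 WT libraries), hippocampus (Hip; 5 HT and 6 WT) and striatum (Str; 6 HT and 6 WT), 34 libraries in all. The labels do not say that the libraries of a group came from separate animals, so p-values measure the spread between these libraries, part of which may be technical.

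Metabotropic glutamate receptors are G protein-coupled receptors that respond to glutamate more slowly than the ion channel receptors do. Group I receptors couple to Gq, phospholipase C and release of stored calcium and lie mostly on the postsynaptic side, with Homer and Shank proteins as scaffolds. Group II and group III receptors couple to Gi/o, lower cyclic AMP and mostly restrain transmitter release from nerve terminals; Grm3 is also made by astrocytes.

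Values are normalized counts as the authors deposited them, and a difference between groups is a difference of means of log2(value + 1). The sums per library ran from 25786041.4 to 29798958.65 normalized counts, and the depth before scaling is not known. Myt1l, the mutated gene, was not lower in HT, so its level does not check the labels. It averaged 6820.3 normalized counts in PFC HT and 6650.2 in PFC WT, 6896 in Hip HT and 6216 in Hip WT, and 8162 in Str HT and 7675 in Str WT. Summed region markers were highest in the labelled region and were not absent from the others. The sum of 8 dentate granule markers was 8759 to 11679 normalized counts in Hip HT and 9316 to 10672 in Hip WT. It was 3130 to 4800 in Str HT and 2812 to 5172 in Str WT, and 1204 to 1467 in PFC HT and 1146 to 1349 in PFC WT. Drd1, a dopamine receptor of striatal projection neurons, averaged 3411 and 3509 normalized counts in Str HT and WT, against 305 and 255 in PFC HT and WT. Prox1, a transcription factor of dentate granule cells, averaged 4047 and 4002 in Hip HT and WT, and Tbr1, a transcription factor of cortical projection neurons, 3876 and 3700.0 in PFC HT and WT.

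Markers of choroid plexus, a tissue inside the ventricles beside Hip and Str, varied between libraries, and their part in the results was not tested. The summed level of 8 of 8 choroid plexus markers was 2471 to 87086 normalized counts in Hip HT and 2180.0 to 66098 in Hip WT, and 1388 to 86878 in Str HT and 22704 to 89976 in Str WT. In PFC the same sum was 107 to 188 in HT and 153 to 245 in WT. No marker on the lists was at 0 in every library of a group. One column code, 31-67M, stood on a WT library of PFC (replicate 6) and on HT libraries of Hip and Str (replicate 1 of each). The genotype of the titles was used. With and without these 3 libraries, the text gives the receptor genes' genotype calls in single regions and their genotype differences averaged over regions. The 1 genotype call among the other genes named is given both ways too. Single-region estimates without these libraries are given for some receptor genes only.

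No receptor gene passed the test between HT and WT in any region. Of 18 tests (6 genes in 3 regions, limma, p adjusted over all genes by Benjamini-Hochberg), 0 passed an adjusted p of 0.05 and 0 had an unadjusted p under 0.05. The smallest adjusted p was 0.742. In each of the 3 regions 0% of all genes passed, with 833 of 16667 genes in PFC, 1145 of 16820 in Hip and 1004 of 17054 in Str at an unadjusted p under 0.05. The 18 estimated differences lay between -0.25 and 0.15 on the log2 scale, and their 95% intervals between -0.53 and 0.56. Between regions 27 of 36 tests of the 6 genes passed, where 42.6% to 56.6% of all genes passed in the 6 comparisons. By gene, the tests that passed were 6 of 6 for each of Grm3, Grm4 and Grm8, 4 of 6 for Grm5 and Grm2, and 1 of 6 for Grm7. The plot of levels by library shows all 6 genes.

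**Figure D1:**
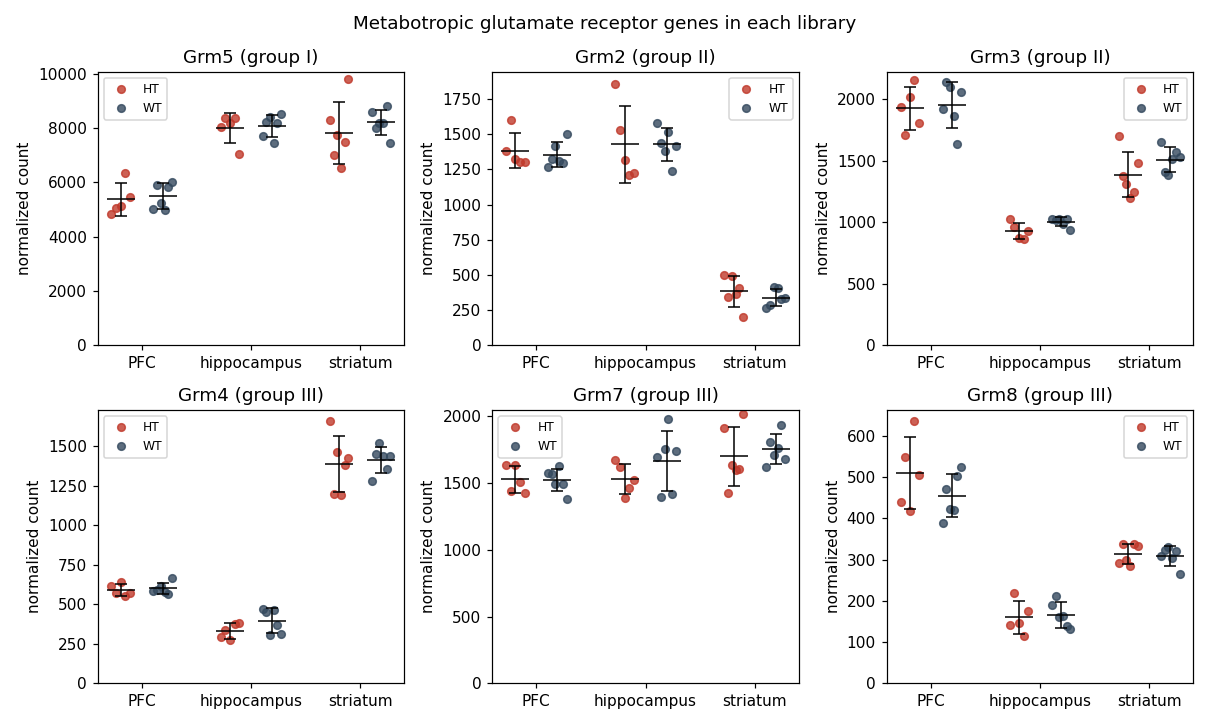
Normalized counts of the 6 receptor genes in each of the 34 libraries, by region, with HT left of WT; points are libraries and bars show the mean and SD. Grm2 is low in Str, Grm4 high in Str and Grm8 low in Hip, while HT and WT points overlap for every gene in every region.

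Myt1l belongs to the family of MYT zinc finger proteins, whose known core motif is AAAGTT, so the 250 bases before each annotated start were searched for it on both strands, as AAAGTT or its complement AACTTT. RefSeq (GRCm38.p6) gave 7 windows for 4 of the 6 genes, namely Grm2, Grm3, Grm7 and Grm8; Grm4 and Grm5 are named only. The motif was present in 2 of the 7 windows, and in 12.4% of the 32851 windows of the same length over all genes. The Grm3 window (chr5:9725353-9725602, minus strand) holds it with its first base 217 bases before the start. The window of a second Grm8 start (chr6:28134422-28134671, minus strand) holds it 56 bases before the start. The Grm2 window (chr9:106656110-106656359, minus strand) has no match and is shown for comparison with its group II partner. Capitals mark the motif, all sequences run 5′ to 3′, and a match describes these letters and is not a binding site.
Grm3: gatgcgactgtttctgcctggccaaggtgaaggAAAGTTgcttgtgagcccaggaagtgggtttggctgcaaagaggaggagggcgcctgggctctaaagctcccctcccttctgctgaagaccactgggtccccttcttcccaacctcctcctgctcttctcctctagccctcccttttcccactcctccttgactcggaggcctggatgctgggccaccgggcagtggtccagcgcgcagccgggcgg
Grm8, second start: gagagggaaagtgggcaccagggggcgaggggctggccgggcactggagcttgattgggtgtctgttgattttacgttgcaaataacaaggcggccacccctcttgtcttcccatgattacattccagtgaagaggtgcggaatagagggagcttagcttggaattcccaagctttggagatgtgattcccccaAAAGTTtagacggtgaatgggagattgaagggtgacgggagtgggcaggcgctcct
Grm2: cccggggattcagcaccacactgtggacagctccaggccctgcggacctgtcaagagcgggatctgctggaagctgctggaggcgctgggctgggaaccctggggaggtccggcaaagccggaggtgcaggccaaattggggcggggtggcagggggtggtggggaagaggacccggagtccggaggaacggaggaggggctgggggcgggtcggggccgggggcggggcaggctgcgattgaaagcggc

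Grm5 was lower in PFC than in Hip or Str in both genotypes. Grm5 (ENSMUSG00000049583, chromosome 7, 87584168 to 88134907, plus strand, GRCm38) encodes the group I receptor mGluR5. In PFC the HT libraries had 4825, 5051, 5146, 6359 and 5466 normalized counts, and the WT libraries 4969 to 6016 normalized counts (median 5536). Hip HT libraries had 8048, 8356, 8175, 8388 and 7042, and Hip WT libraries 7458 to 8503 normalized counts (median 8203). In Str the range was 6544 to 9820.4 normalized counts (median 7612) in HT and 7459.5 to 8809 normalized counts (median 8192) in WT. Every PFC library lay below every Hip and Str library of its genotype, while the Hip and Str ranges overlapped. On the log2 scale PFC minus Hip was -0.58 (SE 0.09, adjusted p = 6.11e-05) in HT and -0.56 (SE 0.05, adjusted p = 8.14e-09) in WT, that is 0.669 and 0.678 times the Hip level. PFC minus Str was -0.54 (SE 0.09, adjusted p = 5.50e-05) in HT and -0.58 (SE 0.05, adjusted p = 2.54e-09) in WT. Hip and Str were not told apart: the difference was 0.04 in HT with a 95% interval of -0.14 to 0.23, and -0.02 in WT with -0.13 to 0.09.

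Between genotypes, Grm5 averaged 5369.5 ± 599 normalized counts in PFC HT and 5493 ± 471 in PFC WT (SD, n = 5 and 6). The corresponding means were 8002 ± 554 and 8086 ± 410.4 in Hip (n = 5 and 6) and 7816 ± 1156 and 8209 ± 472 in Str (n = 6 each). HT minus WT was -0.04 in PFC, -0.02 in Hip and -0.08 in Str, with 95% intervals of -0.19 to 0.12, -0.12 to 0.09 and -0.25 to 0.09. The spread in Str was wider in HT, with a coefficient of variation of 14.8%, than in WT, with 5.75%; this difference in spread was not tested. The highest and lowest Str libraries were both HT: replicate 6 had 9820.4 normalized counts and replicate 4 had 6544. The summed level of the 10 striatal projection neuron markers was 98166 in replicate 6 and 65128 in replicate 4, the highest and the lowest of the 6 HT libraries, against 76515 to 96999 in Str WT. The part of this sum in the Grm5 values was not tested; in whole tissue, fewer cells of a type and less RNA per cell cannot be told apart.

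The group II genes had different regional patterns: Grm2 was low in Str alone, and Grm3 was highest in PFC and lowest in Hip. Grm2 (ENSMUSG00000023192, chromosome 9, 106643095 to 106656082, minus strand) encodes mGluR2, a mostly presynaptic receptor of neurons. PFC HT libraries had 1383, 1601, 1325, 1302 and 1303 normalized counts of Grm2, and PFC WT libraries 1267 to 1500.0 normalized counts (median 1319). In Hip the HT libraries had 1861, 1532, 1318, 1209 and 1227, and the WT libraries 1239 to 1580.3 normalized counts (median 1429). Str libraries ran from 201 to 502 normalized counts (median 384) in HT and from 264 to 414 normalized counts (median 334) in WT. The Str values of both genotypes lay below every PFC and Hip library, and PFC and Hip overlapped.

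PFC minus Str for Grm2 was 1.90 (SE 0.19, adjusted p = 2.44e-07) in HT, a 3.74-fold higher level in PFC, and 2.01 (SE 0.09, adjusted p = 5.04e-14) in WT, or 4.03-fold. Hip minus Str was 1.93 (SE 0.19, adjusted p = 2.78e-07) in HT, 3.82-fold higher in Hip, and 2.09 (SE 0.09, adjusted p = 2.14e-14) in WT, or 4.26-fold. PFC minus Hip did not pass, at -0.03 in HT with an interval of -0.45 to 0.38, and -0.08 in WT with -0.27 to 0.11. The sum of 8 of 8 cortical neuron markers was 7965 to 11937 normalized counts in Str HT and 8529 to 12448 in Str WT. It was 20382 to 22076 in PFC HT and 19679 to 21899.5 in PFC WT. In Hip it was 8605 to 9473 in HT and 9001 to 9333 in WT, inside the Str range of each genotype. Grm2 did not tell PFC and Hip apart, so this sum did not follow Grm2 across the regions. Slc17a7, the vesicular glutamate transporter of cortical and hippocampal neurons, ran from 337 to 7818 in Str HT and from 410.1 to 8530.4 in Str WT, so Str libraries differed in this signal; its part in the Str level of Grm2 was not tested. Grm2 shares 470 exon bases with the antisense gene Gm28111, and the library kit named in the labels does not mark strand, so reads of the pair cannot be told apart there.

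HT minus WT for Grm2 was 0.03 (SE 0.06, adjusted p = 0.992) in PFC, -0.02 (SE 0.10, adjusted p = 0.990) in Hip and 0.14 (SE 0.20, adjusted p = 0.949) in Str. The means were 1383 ± 126 in HT and 1354 ± 87.9 in WT in PFC, 1429 ± 273 and 1429 ± 117 in Hip, and 384 ± 110.4 and 339 ± 61.1 in Str (SD). Of the 6 genes, Grm2 had the widest spread in Str, with a coefficient of variation of 28.8% in HT and 18.04% in WT. The lowest Str value, 201, belonged to HT replicate 6 and the highest, 502, to HT replicate 1. In Hip the highest library was HT replicate 1 at 1861. Without the 3 libraries of code 31-67M, which include both of these replicate 1 libraries, HT minus WT was -0.12 (SE 0.08, adjusted p = 0.695) in Hip and 0.05 (SE 0.19, adjusted p = 0.962) in Str.

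Grm3 (ENSMUSG00000003974, chromosome 5, 9485541 to 9725170, minus strand) encodes mGluR3, the group II receptor of both astrocytes and neurons. The PFC HT libraries had 1937, 1708, 2017, 2156 and 1802 normalized counts, and the PFC WT libraries 1632 to 2136 normalized counts (median 1989). Hip HT libraries had 1021, 956, 874, 859 and 931, and Hip WT libraries 937 to 1026 normalized counts (median 1022). Str libraries had 1197 to 1696 normalized counts (median 1340.3) in HT and 1383 to 1653 normalized counts (median 1521) in WT. Hip lay below both other regions in every library of either genotype, and PFC and Str ranges met in WT but not in HT. All 6 region tests passed. PFC minus Hip was 1.05 (SE 0.08, adjusted p = 8.02e-09) in HT and 0.95 (SE 0.06, adjusted p = 9.66e-12) in WT, or 2.07-fold and 1.94-fold higher in PFC. PFC minus Str was 0.48 (SE 0.08, adjusted p = 4.85e-05) in HT and 0.37 (SE 0.06, adjusted p = 1.38e-05) in WT, and Hip minus Str -0.57 (SE 0.08, adjusted p = 9.40e-06) in HT and -0.59 (SE 0.06, adjusted p = 2.05e-08) in WT. With values rescaled to equal library totals, the WT difference between PFC and Str was 0.23. The summed level of 10 of 10 astrocyte markers was 63145 to 67204 in PFC HT and 59920.1 to 69567 in PFC WT, 62914 to 72586 in Hip HT and 65891 to 70712 in Hip WT, and 60033 to 64683 in Str HT and 58281 to 64321 in Str WT. Its part in the Grm3 values was not tested.

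Grm3 had the smallest p of the 6 genes for genotype, and it did not pass. In Hip it averaged 928 ± 65.6 normalized counts in HT and 1002 ± 35.7 in WT (SD, n = 5 and 6), with 4 of 5 HT libraries below the WT mean and overlapping ranges. The log2 difference was -0.11 (SE 0.05, adjusted p = 0.742), with a 95% interval of -0.23 to 0.00160. In Str the means were 1383 ± 182 in HT and 1508 ± 101 in WT (n = 6 each), a difference of -0.13 (SE 0.08, adjusted p = 0.877) with 5 of 6 HT libraries below the WT mean. In PFC the means were 1924 ± 176 in HT and 1950.3 ± 189 in WT, a difference of -0.02 (SE 0.07, adjusted p = 0.993). Averaged over the regions the difference was -0.09 (SE 0.04, adjusted p = 0.452). Without the 3 libraries of code 31-67M it was -0.15 (SE 0.05, adjusted p = 0.502) in Hip, -0.19 (SE 0.06, adjusted p = 0.541) in Str and -0.11 (SE 0.04, adjusted p = 0.173) on average.

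Levels of the group II partners were also set against each other per kilobase of exon, since longer genes give more reads. The ratio of Grm3 to Grm2 per kilobase was 2.26 ± 0.351 in PFC HT and 2.31 ± 0.196 in PFC WT, 1.06 ± 0.129 in Hip HT and 1.13 ± 0.113 in Hip WT, and 6.36 ± 2.75 in Str HT and 7.38 ± 1.64 in Str WT (SD). The partners were thus near parity in Hip, while Grm3 exceeded Grm2 per kilobase in every Str library, the lowest ratio being 4.30 in HT and 5.36 in WT.

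Among the group III genes, Grm4 was highest in Str, Grm8 was highest in PFC, and Grm7 differed little between regions. Grm4 (ENSMUSG00000063239, chromosome 17, 27422387 to 27521403, minus strand) encodes mGluR4, a presynaptic receptor of striatal output terminals among others. In PFC HT libraries it had 614, 571, 641, 551 and 571 normalized counts, and in PFC WT libraries 566 to 664 normalized counts (median 589.6). In Hip HT it had 293, 337, 274, 375 and 380.2, and in Hip WT 308 to 474 normalized counts (median 412). Str HT libraries had 1193 to 1659.9 normalized counts (median 1404), and Str WT libraries 1280.0 to 1521 normalized counts (median 1438). The 3 regions did not overlap in either genotype.

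Hip minus Str for Grm4 was -2.06 (SE 0.10, adjusted p = 2.13e-12) in HT and -1.85 (SE 0.09, adjusted p = 2.55e-13) in WT, 0.239 and 0.278 times the Str level. PFC minus Str was -1.22 (SE 0.10, adjusted p = 2.27e-09) in HT and -1.23 (SE 0.09, adjusted p = 2.06e-10) in WT. PFC minus Hip was 0.84 (SE 0.10, adjusted p = 1.30e-06) in HT and 0.61 (SE 0.09, adjusted p = 1.22e-05) in WT. The 8 genes listed as markers of neighbouring thalamus, 8 of 8 measured, were not tested for expression in cells of Str itself. They summed to 10150.4 to 15880.5 normalized counts in Str HT and 10006 to 15077 in Str WT. In PFC the sum was 3499 to 4099 in HT and 3464 to 4103 in WT. In Hip it was 2926 to 6000.4 in HT and 2755 to 4046 in WT. The striatal projection neuron sum was 7637 to 10132 in PFC HT and 6643 to 12365 in PFC WT, and 4829 to 6269 in Hip HT and 4763 to 5654 in Hip WT. Both marker sums, like Grm4, were higher in Str than in PFC and Hip, and their part in the Str level of Grm4 was not tested. Within Str they went with Grm4 in some libraries and not in others. Of Str HT, replicates 4 and 2 had the lowest Grm4, 1193 and 1196. Their striatal projection neuron sums, 65128 and 66903, were the lowest as well. Replicate 6 of Str HT had the highest such sum, 98166, and a Grm4 of 1425. Replicate 1 of Str HT had the highest Grm4, 1659.9, a striatal projection neuron sum of 89682, and the lowest thalamic sum, 10150.4. Of Str WT, replicate 5 had the highest striatal projection neuron sum, 96999, and a Grm4 of 1355, below the median. Replicate 3 of Str WT had the highest Grm4, 1521, and the highest thalamic sum, 15077.

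The estimated genotype difference that was largest in size of all 18 was that of Grm4 in Hip, -0.25 (SE 0.13, adjusted p = 0.774), with a 95% interval of -0.53 to 0.03. The means there were 332 ± 47.7 in HT and 398 ± 76.5 in WT (SD, n = 5 and 6). All 5 HT libraries lay below the WT mean, while WT libraries reached as low as 308, inside the HT range. In PFC the difference was -0.03 (SE 0.06, adjusted p = 0.992) and in Str -0.04 (SE 0.08, adjusted p = 0.967). The change in the genotype difference between PFC and Hip, 0.22 (SE 0.14), was the largest in size of 18 such tests and did not pass (limma, unadjusted p = 0.127). Without the code 31-67M libraries Grm4 in Hip was -0.21 (SE 0.14, adjusted p = 0.713).

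Grm7 (ENSMUSG00000056755, chromosome 6, 110645581 to 111567230, plus strand) encodes mGluR7, a receptor of the presynaptic active zone with low affinity for glutamate. PFC HT libraries had 1637, 1441, 1635, 1505 and 1427 normalized counts, and PFC WT libraries 1382 to 1627 normalized counts (median 1532). In Hip HT the values were 1669.8, 1618, 1391, 1461 and 1524, and in Hip WT 1399 to 1979 normalized counts (median 1717). In Str the HT libraries had 1427 to 2014 normalized counts (median 1620.2) and the WT libraries 1619 to 1938 normalized counts (median 1735). All 3 regions overlapped in both genotypes. PFC minus Str passed in WT, at -0.20 (SE 0.07, adjusted p = 0.0184), and not in HT, at -0.14 (SE 0.08, adjusted p = 0.122). This WT call was lost when only libraries whose code begins with 35 were used, with -0.20 (adjusted p = 0.0815), and the HT difference passed without Str HT replicate 2, with -0.19 (adjusted p = 0.0326). Hip minus Str in HT, -0.14 (SE 0.08, adjusted p = 0.148), also passed without that library, with -0.19 (adjusted p = 0.0423). PFC minus Hip in WT, -0.12 (SE 0.07, adjusted p = 0.178), passed without Hip WT replicate 2, with -0.17 (adjusted p = 0.0491).

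The 6 regional differences of Grm7 ran from -0.20 to -0.00301, and each of the other 5 genes had at least 1 regional difference of larger size. HT minus WT was 0.0049 (SE 0.05, adjusted p = 0.996) in PFC, -0.11 (SE 0.08, adjusted p = 0.847) in Hip and -0.05 (SE 0.08, adjusted p = 0.949) in Str. Grm7 shares 130 exon bases with the antisense gene Gm20387, which averaged 70.7 normalized counts in PFC HT and 66.0 in PFC WT, against the Grm7 means of 1529 ± 102 and 1523 ± 85.4 (SD).

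Grm8 (ENSMUSG00000024211, chromosome 6, 27275119 to 28135178, minus strand) encodes mGluR8, another presynaptic receptor. Its values were 439, 549, 417, 636 and 505 normalized counts in PFC HT and 389.7 to 523 normalized counts (median 447) in PFC WT. Hip HT libraries had 142, 219, 147, 116 and 176, and Hip WT libraries 131 to 212 normalized counts (median 161). Str libraries had 284 to 337 normalized counts (median 316) in HT and 264 to 329.5 normalized counts (median 315) in WT. The regions kept apart in every library, in the order Hip, Str, PFC from low to high. PFC minus Hip was 1.68 (SE 0.14, adjusted p = 1.48e-08) in HT and 1.47 (SE 0.11, adjusted p = 1.43e-10) in WT, that is 3.21-fold and 2.76-fold. PFC minus Str was 0.68 (SE 0.14, adjusted p = 2.85e-04) in HT and 0.56 (SE 0.11, adjusted p = 1.16e-04) in WT, and Hip minus Str -0.999 (SE 0.14, adjusted p = 5.65e-06) in HT and -0.91 (SE 0.11, adjusted p = 2.17e-07) in WT.

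Grm8 in PFC had the highest of the positive genotype estimates, 0.15 (SE 0.11, adjusted p = 0.978), with means of 509 ± 87.9 normalized counts in HT and 455 ± 52.3 in WT (SD, n = 5 and 6). In HT 3 of 5 libraries lay above the WT mean. In Hip the difference was -0.06 (SE 0.16, adjusted p = 0.970) and in Str 0.02 (SE 0.08, adjusted p = 0.981). Grm8 overlaps the microRNA gene Mir592 over 96 exon bases on the same strand.

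**Figure D2:**
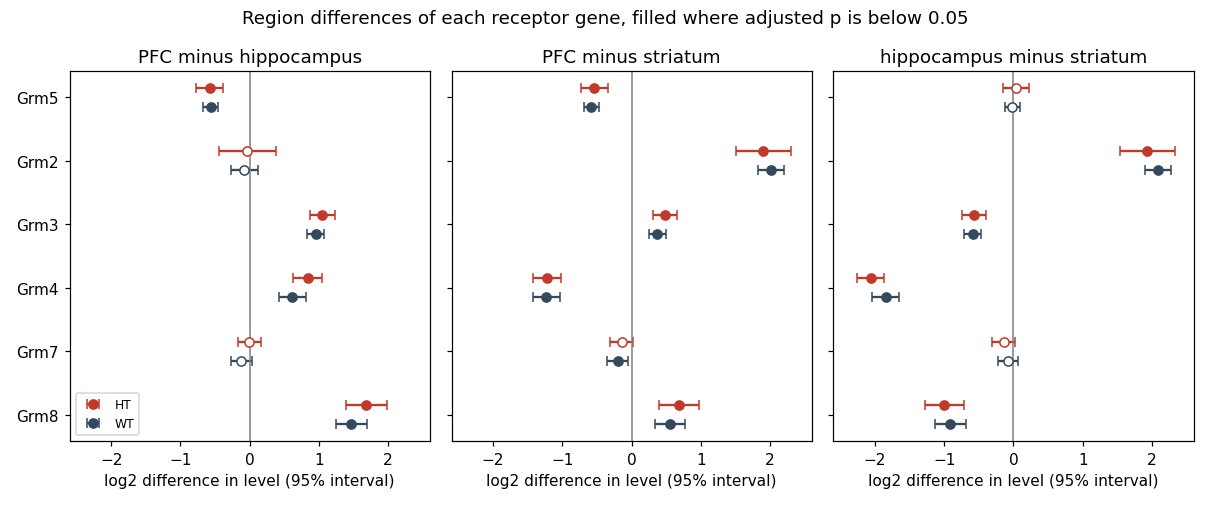
Log2 differences between regions for the 6 receptor genes, in the 16 HT and the 18 WT libraries, with 95% intervals; filled points have an adjusted p under 0.05 over all genes tested. HT and WT give the same direction for every gene with a filled point, and Grm7 stays between -0.20 and 0 in all 3 comparisons.

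Counted over the 6 genes, PFC against Hip gave 3 higher and 1 lower in HT and the same in WT, where 42.6% of 17080 genes in HT (20.7% higher, 21.9% lower) and 46.3% of 17017 genes in WT (22.7% higher, 23.6% lower) passed. PFC against Str gave 3 higher and 2 lower in HT and 3 higher and 3 lower in WT, where 54.9% of all genes passed in HT (26.9% higher, 28.1% lower) and 56.6% in WT (27.7% higher, 29% lower). Hip against Str gave 1 higher and 3 lower in both genotypes, where 45.3% of all genes passed in HT (22.7% higher, 22.6% lower) and 47.5% in WT (23.6% higher, 23.9% lower). The members' counts of 4 to 6 of 6 are read against that. The median size of the log2 difference over the 6 genes was 0.71 in HT and 0.59 in WT for PFC against Hip, where all genes had 0.23 and 0.22. For PFC against Str it was 0.61 in HT and 0.57 in WT, where all genes had 0.29 and 0.28. For Hip against Str it was 0.78 in HT and 0.75 in WT, where all genes had 0.23 and 0.23. No receptor gene's regional call changed without the 3 libraries of code 31-67M.

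**Figure D3:**
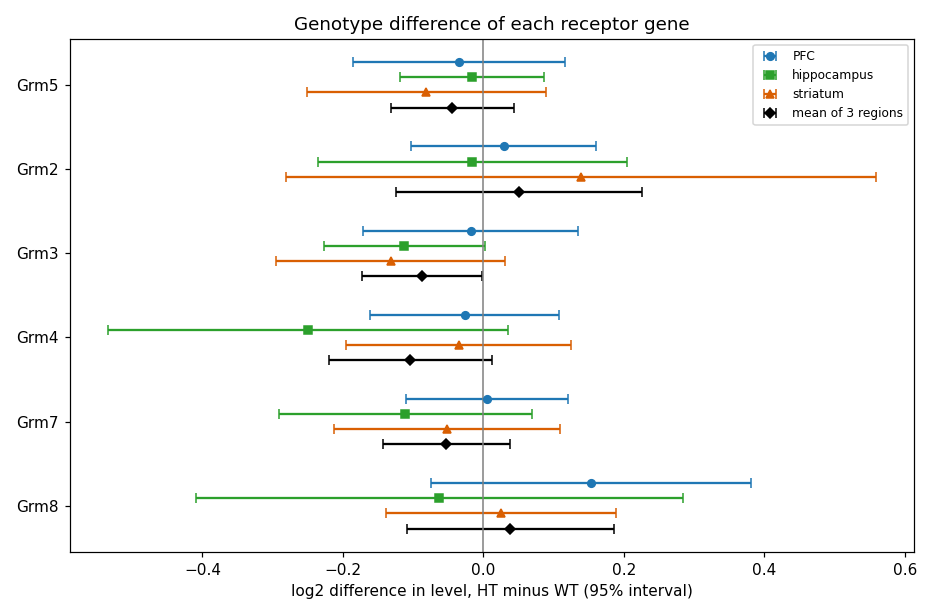
HT minus WT on the log2 scale for the 6 receptor genes in PFC, Hip and Str and averaged over the regions, with 95% intervals. The single-region estimates lie between -0.25 and 0.15, every single-region interval reaches both sides of 0, and the interval of averaged Grm3 ends just below 0.

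Averaging over the regions in 1 model of all 34 libraries left the receptor genes without a call, 0 of 6, where 0.17% of 17051 genes passed (0.0762% higher, 0.0938% lower) and 1798 had an unadjusted p under 0.05. Grm3 had the smallest p, an unadjusted p of 0.0434 in limma, which became 0.452 after adjustment over all genes. This model took the libraries as independent, although 10 of the 12 column codes recur in all 3 regions. With the code as a random effect 0 of 6 passed as well. The averaged differences were -0.04 (SE 0.04, adjusted p = 0.775) for Grm5, 0.05 (SE 0.09, adjusted p = 0.896) for Grm2 and -0.10 (SE 0.06, adjusted p = 0.536) for Grm4. They were -0.05 (SE 0.04, adjusted p = 0.739) for Grm7 and 0.04 (SE 0.07, adjusted p = 0.910) for Grm8. In single regions 13 of 18 estimates were below 0, among them all 6 in Hip, where the median over the 6 genes was -0.09 and the median over all genes -0.00140. The Hip comparison was rerun under 20 alternatives, most of them refits of the same data with libraries left out. The sign turned in 5 for Grm2 and in 2 each for Grm5 and Grm8. It turned in 0 for Grm3, Grm4 and Grm7. No difference of the genotype effect between regions passed, 0 of 18, where 0% of 17051 genes passed in each pair of regions and 641, 612 and 629 genes had an unadjusted p under 0.05 for PFC against Hip, PFC against Str and Hip against Str. Without the 3 libraries of code 31-67M 0 of 18 single-region tests passed as well, and the averages were -0.04 (SE 0.05, adjusted p = 0.748) for Grm5, -0.00246 for Grm2 and -0.10 (SE 0.06, adjusted p = 0.499) for Grm4. They were -0.08 (SE 0.05, adjusted p = 0.444) for Grm7 and 0.07 (SE 0.08, adjusted p = 0.759) for Grm8.

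Per kilobase of exon the 6 genes could be ordered within a region. In PFC, Grm3 and Grm5 led, with 631 ± 57.7 and 524 ± 58.5 normalized counts per kilobase in HT and 639.6 ± 61.9 and 536 ± 46.0 in WT (SD), followed by Grm2, Grm7, Grm4 and Grm8. Library ranges of Grm3 and Grm5 overlapped there, as did those of Grm2 and Grm7. In Hip, Grm5 led alone at 781 ± 54.1 in HT and 789 ± 40.1 in WT; Grm3, Grm2 and Grm7 followed with overlapping ranges, then Grm4 and Grm8. In Str the order was Grm5, Grm3, Grm7, Grm4, Grm2 and Grm8; Grm7 and Grm4 overlapped in HT but not in WT, and no other neighbours did. Grm8 was lowest everywhere, at 16.1 ± 3.99 in Hip HT and 16.7 ± 3.104 in Hip WT. The length matters here, because the annotation gives 7 transcripts for Grm5 and 1 for Grm3: with the length of the longest transcript, Grm5 stood above Grm3 and Grm7 above Grm2 in PFC, and Grm7 was second in Hip.

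As shares of the summed level per kilobase, group II held 49.5% ± 1.06 in PFC HT and 49.3% ± 2.13 in PFC WT, 34.8% ± 2.57 in Hip HT and 34.95% ± 1.13 in Hip WT, and 28.9% ± 2.27 in Str HT and 29.2% ± 1.32 in Str WT (SD). Group I, that is Grm5, held 28.3% ± 2.08 in PFC HT and 28.9% ± 1.97 in PFC WT, 45.7% ± 2.89 in Hip HT and 44.5% ± 2.54 in Hip WT, and 41.2% ± 2.41 in Str HT and 41.5% ± 1.24 in Str WT. Group III held 22.2% ± 1.11 in PFC HT and 21.9% ± 1.20 in PFC WT, 19.5% ± 1.30 in Hip HT and 20.6% ± 1.99 in Hip WT, and 29.9% ± 0.981 in Str HT and 29.3% ± 1.49 in Str WT. The largest share was thus group II in PFC and group I in Hip and Str. Within group III the leading gene was Grm7 in all 3 regions, and Grm4 held 12.6% ± 0.800 in Str HT and 12.3% ± 0.990 in Str WT, against 3.27% ± 0.600 in Hip HT and 3.75% ± 0.717 in Hip WT. These shares cover the 6 genes only; other genes of the family were not analysed here.

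**Figure D4:**
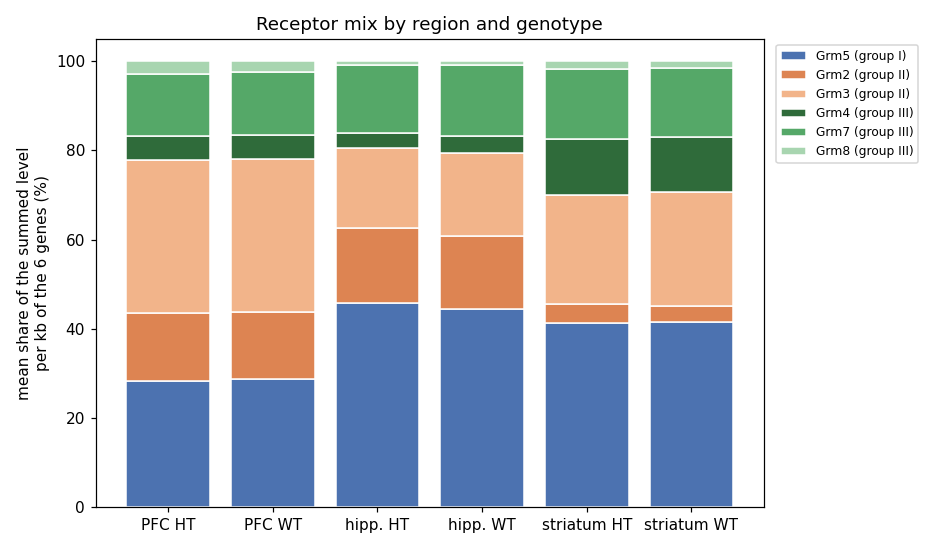
Percent of the summed level per kilobase of exon held by each of the 6 receptor genes, as group means for HT and WT in each region. HT and WT bars look alike within a region, Grm3 takes the largest share in PFC, and Grm5 in Hip and Str.

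For each receptor gene, the genes with the most similar pattern were found among 12671 genes with a mean of at least 100, by the root mean square (RMS) difference of centred log2 values over the 34 libraries. Grm5, whose own values spread with an RMS of 0.291 around their mean, was most like Caln1 (0.116) and Zfp3 (0.121). Grm2, with an RMS of 0.979, was most like Npnt (0.238) and Cemip (0.268), and Grm3, with 0.422, most like Mark1 (0.127) and Flrt1 (0.132). Grm4, with 0.829, was most like Ptpn5 (0.162) and Gnal (0.173). Grm8, with 0.667, was most like Adgrl2 (0.214) and Dpp10 (0.215). For Grm7, with 0.147, the nearest genes Hnrnpl (0.115) and Rpsa (0.118) were little closer than a pattern with no variation, which would give 0.147. All points come from 3 regions, and the libraries of a region share its tissue.

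Genes that work with the receptors were followed as 4 lists: Gq signalling and scaffolds of group I receptors (20 of 21 genes measured), Gi/o signalling (21), binding partners of group II and III receptors (9), and supply and removal of glutamate and its dipeptide NAAG (13). Between genotypes 0 genes of the 4 lists passed in PFC, Hip or Str. The smallest p belonged to Gng3, a G protein gamma subunit, in PFC, at -0.14 (SE 0.04, adjusted p = 0.903). In Hip it belonged to Gnai1, an inhibitory G protein alpha subunit, at -0.17 (SE 0.04, adjusted p = 0.431), and in Str to Pick1, a scaffold that binds Grm7, at 0.16 (SE 0.06, adjusted p = 0.770).

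Averaged over the regions, Gnai1 was the 1 list gene that passed, lower in HT at -0.13 (SE 0.03, adjusted p = 0.0426). It averaged 4425 normalized counts in PFC HT and 4754 in PFC WT, 4136 in Hip HT and 4651 in Hip WT, and 3853 in Str HT and 4212 in Str WT, with overlapping ranges in all 3 regions. The call was lost with all libraries kept under equal library totals, at -0.12 (adjusted p = 0.0824), and with limma without its trend and robust options, at -0.13 (adjusted p = 0.0699). Of the 12 column codes 10 recur in all 3 regions, and treating the code as a random effect also lost the call, at -0.13 (adjusted p = 0.0653). Without the 3 libraries of code 31-67M it was lost at -0.12 (adjusted p = 0.0738), and with only the libraries whose code begins with 35 at -0.13 (adjusted p = 0.110). With each of the 34 libraries left out in turn it was kept 10 times and lost 24 times, with adjusted p between 0.0165 and 0.101. It was kept without PFC HT replicate 2, PFC WT replicate 1 or 4, Hip HT replicate 4, Hip WT replicate 1 or 4, Str HT replicate 5, or Str WT replicate 1, 4 or 6, and lost without any other. No list gene passed the test for a genotype difference that changed between regions. The smallest p in each pair of regions belonged to Folh1 (PFC against Hip, 0.33 (SE 0.14, adjusted p = 1.000)), Homer3 (PFC against Str, -0.28 (SE 0.17, adjusted p = 0.999)) and Rgs4 (Hip against Str, 0.31 (SE 0.14, adjusted p = 1.000)).

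The same lists held genes that differed between regions. For PFC against Hip, where 42.6% of all genes passed in HT and 46.3% in WT, the group I list had 9 higher and 5 lower in HT and 9 higher and 6 lower in WT, the Gi/o list 9 higher and 5 lower in HT and 10 higher and 5 lower in WT, the partner list 4 higher and 4 lower in HT and 3 higher and 3 lower in WT and the glutamate and NAAG list 2 higher and 6 lower in HT and 2 higher and 7 lower in WT. In HT the median log2 difference was 0.0912 over the group I list, 0.0965 over the Gi/o list, 0.0370 over the partner list and -0.180 over the glutamate and NAAG list, where all genes had -0.0117. In WT the median log2 difference was 0.0702 over the group I list, 0.0321 over the Gi/o list, 0.0209 over the partner list and -0.158 over the glutamate and NAAG list, where all genes had -0.00954. With equal library totals the Gi/o list had 8 higher and 5 lower in HT and 8 higher and 8 lower in WT. In WT the phospholipase Plcb4 (1.76 (SE 0.07)) and the G protein regulator Rgs4 (1.89 (SE 0.09)) were higher in PFC, and the Homer scaffold Homer3 (-2.95 (SE 0.10)) and Ncdn (-1.13 (SE 0.04)), whose product neurochondrin binds mGluR5, were lower. Of the Gi/o list, the potassium channel subunit Kcnj9 (0.92 (SE 0.06)) and the adenylyl cyclase Adcy2 (0.71 (SE 0.05)) were higher, and the gamma subunits Gng2 (-0.55 (SE 0.03)) and Gng7 (-0.96 (SE 0.07)) lower. The calmodulin gene Calm2 (0.26 (SE 0.05)) was higher, and Sdcbp (-0.47 (SE 0.05)), which encodes syntenin, and the phosphatase subunit Ppp1cc (-0.29 (SE 0.04)) lower. The glial glutamate transporter Slc1a2 (0.25 (SE 0.05)) and glutamine synthetase Glul (0.17 (SE 0.05)) were higher, and the neuronal transporter Slc1a1 (-0.44 (SE 0.04)) and the NAAG peptidase Folh1 (-0.69 (SE 0.11)) lower. With equal library totals Glul no longer passed, at 0.08 (adjusted p = 0.159), and Calm2 and Slc1a2 were 0.17 and 0.16.

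For PFC against Str, where 54.9% of all genes passed in HT (26.9% higher) and 56.6% in WT (27.7% higher), the group I list had 15 higher and 2 lower in HT and 15 higher and 1 lower in WT, the Gi/o list 12 higher and 4 lower in HT and 13 higher and 6 lower in WT, the partner list 4 higher and 2 lower in HT and 4 higher and 1 lower in WT and the glutamate and NAAG list 7 higher and 5 lower in HT and 7 higher and 5 lower in WT. In HT the median log2 difference was 0.595 over the group I list, 0.199 over the Gi/o list, 0.0618 over the partner list and 0.150 over the glutamate and NAAG list, where all genes had -0.0140. In WT the median log2 difference was 0.488 over the group I list, 0.182 over the Gi/o list, 0.0305 over the partner list and 0.123 over the glutamate and NAAG list, where all genes had -0.0113. With equal library totals the partner list had 4 higher and 4 lower, the Gi/o list 9 higher and 8 lower, and the glutamate and NAAG list 4 higher and 5 lower, in HT and in WT alike. The summed level of 10 of 10 oligodendrocyte markers was 119685 to 135803 normalized counts in PFC HT and 89492 to 140847 in PFC WT, 137608 to 182211 in Hip HT and 149479 to 195444 in Hip WT, and 251009 to 296019 in Str HT and 224501 to 273770.0 in Str WT. This sum was higher in Str than in PFC and Hip, and its part in the Str comparisons of the 4 lists was not tested. The postsynaptic scaffolds Shank1 (1.73 (SE 0.06)) and Shank2 (1.22 (SE 0.05)) were higher in PFC of WT, while Ncdn (-0.30 (SE 0.04)) was the 1 group I list gene that was lower. Kcnj9 (1.63 (SE 0.06)) and Adcy2 (1.25 (SE 0.05)) were higher, and the striatal adenylyl cyclase Adcy5 (-2.09 (SE 0.06)) and gamma subunit Gng7 (-2.88 (SE 0.07)) lower. Calm3 (0.77 (SE 0.04)) was higher and Ppp1cc (-0.42 (SE 0.04)) lower. Slc1a2 (0.72 (SE 0.05)) was higher, and the vesicular transporters Slc17a6 (-2.94 (SE 0.19)) and Slc17a8 (-1.67 (SE 0.14)) lower. Slc17a6 is also on the list of thalamic markers, whose sums are given beside Grm4.

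For Hip against Str, where 45.3% of all genes passed in HT and 47.5% in WT, the group I list had 13 higher and 3 lower in HT and 13 higher and 3 lower in WT, the Gi/o list 10 higher and 5 lower in HT and 10 higher and 5 lower in WT, the partner list 6 higher and 3 lower in HT and 6 higher and 2 lower in WT and the glutamate and NAAG list 5 higher and 4 lower in HT and 5 higher and 4 lower in WT. In HT the median log2 difference was 0.644 over the group I list, 0.105 over the Gi/o list, 0.350 over the partner list and 0.0252 over the glutamate and NAAG list, where all genes had -0.0109. In WT the median log2 difference was 0.677 over the group I list, 0.0831 over the Gi/o list, 0.278 over the partner list and 0.0712 over the glutamate and NAAG list, where all genes had -0.00829. In WT, Homer3 (2.78 (SE 0.10)) was higher in Hip, and Plcb4 (-1.71 (SE 0.07)) and Rgs4 (-1.31 (SE 0.09)) lower. Kcnj3 (1.46 (SE 0.07)), a potassium channel subunit, and Gng2 (0.74 (SE 0.03)) were higher, and Adcy5 (-2.49 (SE 0.06)) and Gng7 (-1.92 (SE 0.07)) lower. Elfn2 (0.64 (SE 0.05)) was higher and Elfn1 (-0.59 (SE 0.08)) lower; both encode adhesion proteins that bind group III receptors across the synapse. Calm3 (0.75 (SE 0.04)) and Slc1a1 (0.57 (SE 0.04)) were higher, and Slc17a6 (-2.31 (SE 0.19)), Slc17a8 (-1.25 (SE 0.14)) and Ppp1cc (-0.13 (SE 0.04)) lower. Ppp1cc no longer passed with only the libraries whose code begins with 35, at -0.07 (adjusted p = 0.384). Every list gene named from the WT libraries for a region difference had the same direction and passed in HT as well.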

How the data were processed

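Total RNA of 34 libraries was prepared with a TruSeq kit, per the labels' protocols, of a kind that does not mark strand. As deposited, each value is a signal, namely a gene's read count scaled by the authors; the submitters' processing notes name Salmon 1.1.0, DESeq2 1.26.0, R 3.6.2 and GRCm38 without a role for any. The values are not whole numbers, so the count test planned for raw counts was not used, and no counting interval is given. The highest value of each gene over the libraries was 10.2 or more. Of 18548 identifiers, 18533 matched GENCODE M21, which gave symbols, positions and exon lengths, and 15 did not. Groups and genotypes follow the sample titles; columns were matched by name, and 0 columns were left unused.

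Genes with a mean of at least 10 over the libraries of a fit were tested on log2(value + 1) with limma 3.58.1 in R 4.3.3 (trend and robust options, 2-sided, Benjamini-Hochberg over all genes tested, 0.05). All 6 members passed this filter in every fit. One fit per region compared HT with WT; 1 fit of all 34 libraries with 6 group means gave the average over regions and the differences of the genotype effect between regions; 1 fit each of the HT and the WT libraries compared regions. The fits took the libraries as independent, although 10 of the 12 column codes recur in all 3 regions. The script for these fits was tested on simulated data. Levels per kilobase used the summed exon length. Python 3.11.15, numpy 2.4.6, pandas 2.3.3 and matplotlib 3.10.9 made the tables and plots.

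The members and all lists were chosen with earlier results of these data known. List genes were named by smallest p, up to 2 in each direction per list among those that passed, or the 1 smallest where none did; for the region differences they were named from the WT fit, and the HT fit is given as counts. A few list genes that this rule names are not reported here. Alternatives covered the pseudocount (5 and 0.1), no filter, equal library totals, trimmed mean (TMM) scaling, limma without trend or robust options, each library left out, a replicate block, the column code as a random block, and subsets of codes. Replicate numbers were not taken as pairs, since same-numbered HT and WT libraries did not all deviate together.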

Additional observations from a re-analysis of the deposited data

Results flagged for a closer look

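Of 36 groups of libraries (6 genes in 6 groups), 2 held a library far from the others by Dixon's test at 95%, where chance gives about 1 in 20. Grm5 in Hip HT replicate 5 was 7041.86 normalized counts, below the nearest HT library at 8047.55, a gap of 0.747 of the group's range. Grm2 in PFC HT replicate 2 was 1600.63 normalized counts, above the nearest HT library at 1382.82, a gap of 0.730 of the range. Neither library decided a call: leaving out any single library kept the number of receptor genes called between HT and WT at 0 in Hip and in PFC.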

How the results depend on the processing

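The number of receptor genes called stayed at 0 for genotype in each region, on average and for each difference between regions, under every alternative run. For regions it was 4 to 5 for WT PFC against Hip, 5 to 6 for PFC against Str in HT and in WT, 4 to 5 for HT Hip against Str, and 4 throughout for the other 2. Each changed call of a receptor gene was one of Grm7; beside those in the report, equal library totals gave calls for HT PFC against Str at -0.29 (adjusted p = 0.00185), HT Hip against Str at -0.19 (adjusted p = 0.0355) and WT PFC against Hip at -0.21 (adjusted p = 0.0155). Equal totals moved the median of all genes by -0.16 in HT and -0.15 in WT for PFC against Str, and by -0.11 and -0.10 for PFC against Hip. With them the share of calls that were higher fell to 30.1% in HT and 30.2% in WT for PFC against Str, against 48.9% and 48.8% as deposited, and to 32.4% and 33.3% for PFC against Hip, against 48.6% and 49.0%. Among the 6 genes the WT calls for PFC against Hip were then 3 of 5 higher (60%), against 3 of 4 (75%). List genes turned in direction under equal totals for WT PFC against Str, with Shank3 at -0.0123, Slc1a1 at -0.0197 and Sdcbp at -0.133, and for HT PFC against Str, with Gnao1 at -0.00408; the cause was not tested.

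With the replicate number as a block, Grm3 was -0.13 in Hip (adjusted p = 0.727) and -0.08 on average (adjusted p = 0.456), and Grm4 was -0.31 in Hip (adjusted p = 0.659). Same-numbered libraries of HT and WT correlated at -0.148 to 0.181 in their deviations from the group means, so the numbers are not read as pairs. WT replicate 6 of PFC and Hip has no HT partner. Genes called in the average over regions numbered 29, and with 1 library left out 15 (without Hip HT replicate 5) to 44 (without Str HT replicate 1), 37 with the block, 18 with the code as a random block and 78 without the code 31-67M libraries. In single regions 0 to 2 genes passed in PFC, 0 to 4 in Hip and 0 to 2 in Str. Depth before scaling is not known, which limits what can be said of low levels such as Grm8 in Hip.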
